A study of Mus musculus with 9 samples.

Results

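Cxcl12, Cxcr4 and Ackr3 encode a chemokine and its receptors, a signalling axis known for holding stem and progenitor cells in a tissue or letting them leave it. The genes were chosen by name for that role, and all 3 were found among the 26214 genes of the deposited table. RNA was sequenced from sorted stromal cells of male C57Bl/6 J mice aged 8 to 12 weeks, 1 day after an injection of 80 µl into the quadriceps muscle. The injected fluid was glycerol, at 50% in saline, which damages muscle fibres, or NaCl as the uninjured control. Adipose stromal cells (ASCs) came from subcutaneous fat of NaCl-injected mice and gave 3 libraries. Fibro-adipogenic progenitors (FAPs), the stromal cells of muscle, came from the quadriceps of NaCl-injected mice (2 libraries analysed here) and of glycerol-injected mice (3 libraries, called injured FAPs). ASCs and FAPs were sorted as Sca-1+ cells without CD31, a marker of vessels, and without CD45, a marker of leukocytes. The study pooled cells of 3 animals, and whether the libraries of a group share a pool is not clear from its text. It also describes triplicates, while the series holds 2 FAP libraries of NaCl-injected mice, and whether a library was left out is not known. A library of CD31+CD45+ cells from glycerol-injected quadriceps, without a replicate, was not part of any test. ASCs of glycerol-injected mice were not analysed here.

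CXCL12 is a secreted chemokine that binds heparan sulphate on cell surfaces and matrix and so can form local gradients. CXCR4 is its signalling receptor: it couples to inhibitory G proteins and directs migration, and its blockade releases blood progenitors from bone marrow and stromal cells from fat. ACKR3 (also called CXCR7) binds the same chemokine, does not signal through G proteins, and takes the ligand into the cell for degradation, which makes it a scavenger.

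The values are whole reads divided by a size factor per library. Reads on genes numbered 27349184 to 27481573 per ASC library (median 27402102), 24052508 and 24164447 per FAP library, and 26698572 to 27028114 per injured FAP library (median 26968235). The CD31+CD45+ library held 13091077 reads. At this depth 3 reads make a value of 2.29 to 4.71. The genes lie, in the mm10 build, on chromosome 6 from 117168535 to 117181367 (Cxcl12, plus strand), on chromosome 1 from 128588199 to 128592293 (Cxcr4, minus strand) and on chromosome 1 from 90203980 to 90216751 (Ackr3, plus strand).

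Markers of the sorted cells were present. Pdgfra, a receptor that marks FAPs and ASCs, was at 10837, 15083 and 13043 in ASCs, at 17754 and 17757 in FAPs and at 23649, 25268 and 23236 in injured FAPs, against 119 in the CD31+CD45+ library. Ly6a, the gene of the sorted antigen Sca-1, was at 46513, 49855 and 36777 in ASCs, at 16542 and 10823 in FAPs and at 24309, 21308 and 24855 in injured FAPs. It was at 17672 in the CD31+CD45+ library, above both FAP libraries, so it does not set FAPs apart from those cells. Ptprc, which encodes CD45, was at 0, 1.13 and 0 in ASCs and at 0 in both FAP libraries. It was at 11.8, 55.8 and 9.92 in injured FAPs and at 797 in the CD31+CD45+ library. Of 9 genes that mark FAPs and ASCs, with Pdgfra and Ly6a among them, 7 were higher and 0 lower in ASCs against FAPs (median log2 fold change 0.83, limma fit described below; 3 and 1 with quantile normalization, median 0.15). In injured FAPs 2 were higher and 5 lower against FAPs (median −0.92), and 1 was higher and 7 lower against ASCs (median −1.86). With quantile normalization these were 2 and 3 (median −0.04) and 2 and 3 (median −0.14). Of all genes tested, 23.4%, 24.9% and 25% were higher and 23.8%, 27.7% and 25.8% lower in the 3 comparisons. Cd34, Dcn, Col1a1, Col3a1 and Pi16 were the 5 lower in injured FAPs than in FAPs.

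Injured FAP replicate 2 stood apart in leukocyte genes, and the FAP libraries stood apart in zeros. The sum of 16 leukocyte markers was 451, 412 and 372 in ASCs, 265 and 497 in FAPs, 682, 3099.9 and 595 in injured FAPs and 21071 in the CD31+CD45+ library. The most abundant of them was Lyz2 in injured FAP replicate 2, at 725, and Cd68 in both FAP libraries, at 254 and 477. Of the 16 genes, 13 were at 0 in each FAP library, 3, 6 and 7 in the ASC libraries and 1 in each injured FAP library. Across the table, 28 genes were at 0 in both FAP libraries and above 10 in every ASC and injured FAP library, against 5 genes for ASCs and 0 for injured FAPs on the same count. Pecam1, which encodes CD31, was at 195 in FAP replicate 1 and at 0 in FAP replicate 2. How these zeros in FAPs arose is not known, and genes removed or set to 0 in the table cannot be told apart from genes without a read. The 0 of Cxcr4 in FAP replicate 1 is to be read with that limit.

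Cxcl12, the ligand, was at 18738, 12180.1 and 11635 in ASCs, at 9694 and 9524 in FAPs and at 10312, 11136 and 10579 in injured FAPs. ASC replicate 1 was the highest of these 8 libraries, the FAP libraries were the lowest, and no pair of groups overlapped. Its mean was 14184 ± 3953 for ASCs (SD, n = 3), 9609 ± 121 for FAPs (SD, n = 2) and 10676 ± 420.2 for injured FAPs (SD, n = 3). Each library held at least 9268 reads of Cxcl12, and the 95% counting intervals of libraries of different groups did not overlap. The gap between the means of ASCs and injured FAPs was smaller than the SD of ASCs. In bulk libraries such as these, fewer cells of a type and less RNA per cell cannot be told apart. The share of all genes tested whose groups do not overlap is not given here. A lack of overlap, for this gene and those below, thus describes the libraries and does not set a gene apart.

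Cxcr4, the signalling receptor, was at 30.3, 11.3 and 18.8 in ASCs, at 0 and 10.3 in FAPs and at 31.4, 86.8 and 32.03 in injured FAPs. These values rest on 10 to 23 reads per ASC library, 0 and 11 reads in FAPs and 40 to 112 reads in injured FAPs. Injured FAP replicate 2 was the highest of the 8 libraries and FAP replicate 1 the lowest, and the groups did not overlap. The nearest libraries of neighbouring groups lay within counting error of each other, however, while others did not. The exact 95% Poisson interval was 19.2 to 45.5 in ASC replicate 1 and 22.4 to 42.7 in injured FAP replicate 1, and it was 5.43 to 20.8 in ASC replicate 2 and 5.17 to 18.5 in FAP replicate 2. For the FAP library at 0 it reached up to 3.51, under all ASC intervals, and for injured FAP replicate 2 it began at 71.5, above all of them. These intervals cover counting error alone. The mean of Cxcr4 was 20.2 ± 9.56 for ASCs (SD, n = 3), 5.17 ± 7.32 for FAPs (SD, n = 2) and 50.1 ± 31.8 for injured FAPs (SD, n = 3).

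Ackr3, the scavenger receptor, was at 53249, 41623 and 57564 in ASCs, at 10671 and 10509 in FAPs and at 7353, 6199.9 and 6454 in injured FAPs. All ASC libraries were far above all others, injured FAPs were below FAPs, and the groups did not overlap. The mean of Ackr3 was 50812 ± 8245 for ASCs (SD, n = 3), 10589.8 ± 115 for FAPs (SD, n = 2) and 6669 ± 606 for injured FAPs (SD, n = 3). The gap between each pair of neighbouring groups in this order was larger than the spread of the replicates.

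**Figure D1:**
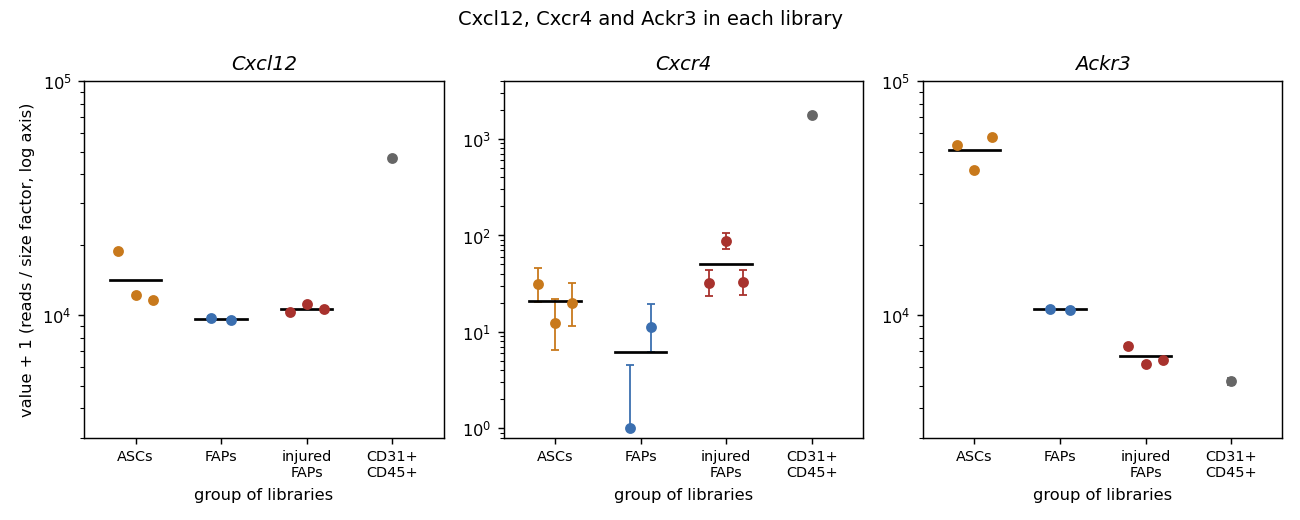
Value + 1 (reads divided by a size factor, log axis) of Cxcl12, Cxcr4 and Ackr3 by group, with a point per library, its 95% counting interval and a black line at the mean of each replicated group. Ackr3 sits between 41623 and 57564 in ASCs and at 10671 or below elsewhere, whereas Cxcr4 stays at 86.8 or below in the 8 ASC and FAP libraries.

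To set the genes side by side, values were divided by the length of each gene's merged exons, in kilobases. On this scale Ackr3 had a mean ± SD of 15177 ± 2463 for ASCs, 3163 ± 34.3 for FAPs and 1992 ± 181 for injured FAPs. Cxcl12 per kilobase was at 1735 ± 484 in ASCs, 1175 ± 14.8 in FAPs and 1306 ± 51.4 in injured FAPs. Cxcr4 per kilobase was at 11.1 ± 5.29 in ASCs, 2.86 ± 4.05 in FAPs and 27.7 ± 17.6 in injured FAPs. In all 8 libraries the order per kilobase was thus Ackr3, then Cxcl12, then Cxcr4. Among 24870 genes with a known length, Ackr3 per kilobase ranked 66 to 86 for ASCs, 227 and 232 for FAPs and 374 to 435 for injured FAPs. Cxcl12 ranked 576 to 807 over the same 8 libraries. Cxcr4 ranked 8769 at best, in injured FAP replicate 2. Merged exons include alternative ends: coding transcripts of Cxcl12 run from 1878 to 5627 bases, so the level per kilobase depends on which are made. Even with its shortest transcript the mean level per kilobase of Cxcl12 in ASCs, 7553, was under that of Ackr3 with its longest, 16578. In FAPs and injured FAPs this order turned, with 5117 for Cxcl12 against 3455 for Ackr3 in FAPs and 5685 against 2176 in injured FAPs.

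The first comparison, ASCs against FAPs, asks how stromal cells of fat and of muscle differ without injury. The tissue and the cell type cannot be told apart in it. The test was limma on log2(value + 1), and a gene passed when its adjusted p was under 0.05 and its log2 fold change was past 0.58, up or down. The added 1 draws fold changes of genes with low values towards 0 and so understates them, but a library at 0 can act the other way, as for Cxcr4 below. Of the 3 genes, 2 were higher in ASCs, 0 were lower and 1 did not pass, where 47.2% of the 13601 genes tested passed in either direction, 23.4% higher and 23.8% lower. With total scaling, 1592 genes were higher and 6317 lower, and with a common 75th percentile 2452 and 4142. P-values here measure the spread between these samples.

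Ackr3 was 4.75-fold higher in ASCs than in FAPs, in 3 of 3 ASC libraries, with a log2 fold change of 2.25 (95% confidence interval 1.93 to 2.57, limma, Benjamini-Hochberg adjusted p = 9.72e-07). Quantile normalization, which gives all libraries the same distribution, brought this to 1.42, and Ackr3 still passed. For Cxcr4 the log2 fold change was 2.55 (95% confidence interval 0.56 to 4.53, limma, Benjamini-Hochberg adjusted p = 0.0302). The ratio of the group means was 3.89, under the fitted 5.85-fold, and DESeq2 gave a log2 fold change of 1.96. The call rested on the FAP library at 0: without FAP replicate 1 the log2 fold change was 0.80 and without FAP replicate 2 it was 4.30. Cxcr4 also missed the threshold without ASC replicate 1 (2.21) or ASC replicate 3 (2.54), with edgeR (1.87), with total scaling (2.09), and with a pseudocount of 8 (1.16). It missed it too with the same 2.55 when the fit held these groups alone or had no trend in the prior variance. Cxcl12 had a log2 fold change of 0.53 (95% confidence interval 0.13 to 0.93, limma, Benjamini-Hochberg adjusted p = 0.0264), which is short of the fold threshold. It was 0.31 without ASC replicate 1, and past the threshold at 0.62 and 0.65 without ASC replicates 2 and 3. Its sign turned with quantile normalization (−0.17) and with total scaling (−0.04).

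The comparison of injured FAPs with FAPs asks how stromal cells sorted from muscle differ 1 day after injury. It uses the same FAP libraries as the first comparison. The study reports that ASCs enter injured muscle by then. A changed mix of cells and a change within cells cannot be told apart here. Of the 3 genes, 1 was higher, 1 was lower and 1 did not pass, where 52.6% of all genes tested passed, 24.9% higher and 27.7% lower. With total scaling, 3964 genes were higher and 3252 lower, and with a common 75th percentile 3012 and 4201. Cxcl12 had a log2 fold change of 0.15 (95% confidence interval −0.25 to 0.55, limma, Benjamini-Hochberg adjusted p = 0.474). Cxcr4 was higher in 3 of 3 injured libraries, with a log2 fold change of 3.75 (95% confidence interval 1.77 to 5.74, limma, Benjamini-Hochberg adjusted p = 0.00393). The ratio of the group means was 9.68, under the fitted 13.5-fold, and edgeR and DESeq2 gave log2 fold changes of 3.28 and 3.29. The size of the log2 fold change depended on the FAP library at 0, with 2.0 without FAP replicate 1 and 5.51 without FAP replicate 2. Cxcr4 passed in both. Ackr3 fell by 0.67 on the log2 scale (95% confidence interval −0.99 to −0.35, limma, Benjamini-Hochberg adjusted p = 0.00227), to 0.628 times the level of FAPs, in 3 of 3 libraries. With total scaling the value for Ackr3 was −0.54, short of the fold threshold.

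Injured FAPs were also compared with ASCs directly, which shares the injured libraries with the comparison above and the ASC libraries with the first. Tissue, cell type and injury differ together between these groups and cannot be told apart. Here 1 of the 3 genes was lower, 0 were higher and 2 did not pass, where 50.8% of all genes tested passed, 25% higher and 25.8% lower. With total scaling, 7378 genes were higher and 1692 lower. Ackr3 was 7.57-fold lower in injured FAPs than in ASCs, with a log2 fold change of −2.92 (95% confidence interval −3.21 to −2.63, limma, Benjamini-Hochberg adjusted p = 5.13e-08). Cxcr4 had a log2 fold change of 1.21 (95% confidence interval −0.57 to 2.98, limma, Benjamini-Hochberg adjusted p = 0.206), with 0.73 without injured FAP replicate 2. With total scaling it was 1.88 and passed. Cxcl12 had a log2 fold change of −0.38 (95% confidence interval −0.73 to −0.02, limma, Benjamini-Hochberg adjusted p = 0.0597). It was −0.16 without ASC replicate 1, and its sign turned with quantile normalization (0.25) and total scaling (0.32). Side by side, Ackr3 differed from FAPs by 2.25 in ASCs and by −0.67 in injured FAPs, and Cxcr4 by 2.55 and 3.75.

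**Figure D2:**
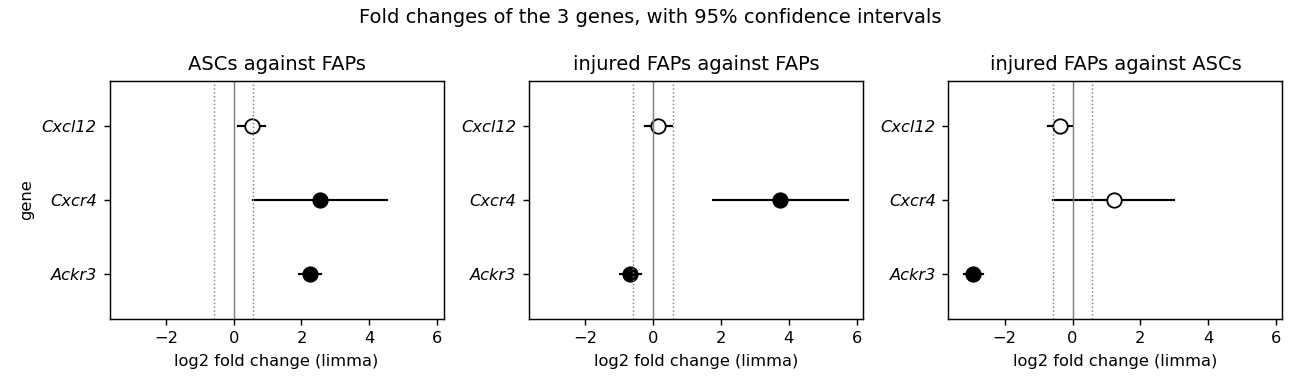
Log2 fold changes of Cxcl12, Cxcr4 and Ackr3 (limma) in the 3 comparisons, with 95% confidence intervals; filled points passed the test, and dotted lines mark the fold threshold of 0.58. Ackr3 has narrow intervals and passed in all 3 comparisons, Cxcr4 has wide ones, and Cxcl12 lies nearest to 0 in each.

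Ratios of 2 genes within a library hardly depend on how the library was scaled. The log2 ratio of Cxcl12 to Ackr3 was −1.51, −1.77 and −2.31 in ASCs, −0.14 in both FAP libraries, and 0.49, 0.84 and 0.71 in injured FAPs. The ligand's value was thus below that of its scavenger in each ASC and FAP library and above it in each injured library, and the groups did not overlap. These ratios use values not divided by length, so their place relative to 0 has no meaning of its own, unlike the differences between groups. The difference was −1.72 for ASCs against FAPs, 0.82 for injured FAPs against FAPs and 2.54 for injured FAPs against ASCs. For each of them the two-sided exact permutation test gave p = 0.1, the smallest p that groups of this size allow, and 0.129 after adjustment over 9 tests of ratios. The difference ranged from −1.90 to −1.50, from 0.74 to 0.92 and from 2.32 to 2.72 as each library was left out.

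The log2 ratio of Cxcr4 to Ackr3 was −10.73, −11.72 and −11.50 in ASCs, −13.38 and −9.85 in FAPs, and −7.83, −6.14 and −7.61 in injured FAPs. Among the 8 libraries of ASCs and FAPs, injured FAPs were the highest, and the FAP libraries lay on either side of ASCs. The difference was 4.43 for injured FAPs against FAPs and 4.13 for injured FAPs against ASCs (exact permutation p = 0.1 for each, the smallest possible, adjusted 0.129). The first of these was 2.66 without FAP replicate 1, 6.19 without FAP replicate 2 and 2.80 with a pseudocount of 8. For ASCs against FAPs the difference was 0.30 (exact permutation p = 0.9), and it was −1.46 without FAP replicate 1, 2.06 without FAP replicate 2 and −1.09 with a pseudocount of 8.

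The log2 ratio of Cxcl12 to Cxcr4, the ligand to its signalling receptor, was 9.23, 9.95 and 9.20 in ASCs, 13.24 and 9.71 in FAPs, and 8.31, 6.99 and 8.32 in injured FAPs. Of these 8 libraries the injured ones were the lowest, and ASCs and FAPs overlapped. The difference was −3.60 for injured FAPs against FAPs and −1.58 for injured FAPs against ASCs (exact permutation p = 0.1 for each, the smallest possible, adjusted 0.129). For ASCs against FAPs it was −2.02 (exact permutation p = 0.2, adjusted 0.225). Without FAP replicate 1 the differences from FAPs were −1.84 in injured FAPs and −0.26 in ASCs, without FAP replicate 2 they were −5.37 and −3.79, and with a pseudocount of 8 they were −1.98 and −0.63.

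**Figure D3:**
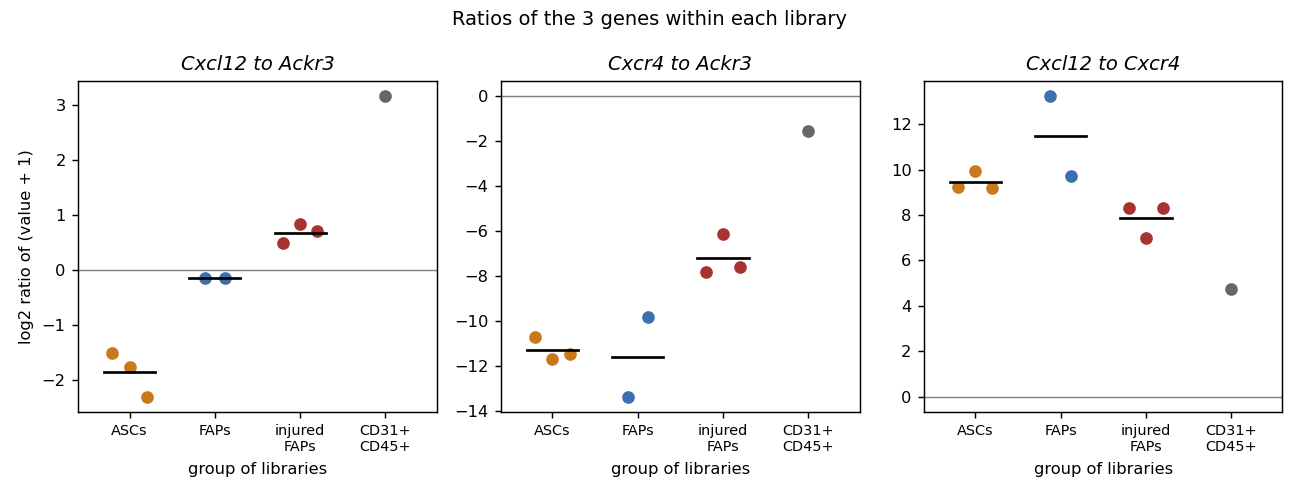
Log2 ratio of (value + 1) for each pair of the 3 genes, by group, with a point per library and a black line at the mean of each replicated group. The Cxcl12 to Ackr3 ratio runs from −2.31 at the lowest in ASCs to 0.84 at the highest in injured FAPs, with no overlap of groups.

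Cxcr4 is abundant in leukocytes, and its values were set beside the 16 leukocyte markers. In percent of the CD31+CD45+ library, Cxcr4 was at 1.71, 0.638 and 1.06 in ASCs, at 0 and 0.583 in FAPs and at 1.77, 4.89 and 1.80 in injured FAPs. The sum of the leukocyte markers, on the same scale, was at 2.14, 1.96 and 1.76 in ASCs, at 1.26 and 2.36 in FAPs and at 3.24, 14.7 and 2.82 in injured FAPs. Injured FAP replicate 2 was the highest library for both. Without it, Cxcr4 in injured FAPs had a mean of 31.7 and a log2 fold change of 3.28 against FAPs (limma, Benjamini-Hochberg adjusted p = 0.0159). Of the leukocyte markers, 11 were tested, but 8 of these had a mean under 10 without the injured libraries and so reached the test through them. Counts are therefore given for the other 3. Lyz2 and Csf1r were higher than in FAPs both in injured FAPs and in ASCs, and both were at 0 in each FAP library, whereas Cd68 did not pass. Of all genes tested, 24.9% were higher and 27.7% lower in injured FAPs, and 23.4% and 23.8% in ASCs. Of 13 endothelial markers tested, 3 were higher and 7 lower in injured FAPs against FAPs, and 4 were higher and 8 lower in ASCs against FAPs. Of the 13, Cldn5, Emcn and Plvap were at 0 in both FAP libraries, and they were the 3 higher in injured FAPs. Against ASCs 8 were higher and 2 lower in injured FAPs, beside 25% and 25.8% of all genes. Emcn and Cldn5 had a mean under 10 without the injured libraries and so reached the test through them. With both set aside, 11 endothelial markers remained. Injured FAPs then had 1 of them higher and 7 lower than FAPs, and 7 higher and 2 lower than ASCs. ASCs had 2 higher and 8 lower than FAPs. The summed value of all 14 endothelial markers was 7384, 5936 and 7771 in ASCs, of which Tek alone made 5986, 4841 and 6699.9. Without Tek the sum was 1398, 1095 and 1071 in ASCs, 5356 and 3370 in FAPs and 2041, 2222 and 1680.3 in injured FAPs. The part of leukocytes in the Cxcr4 values was not tested.

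**Figure D4:**
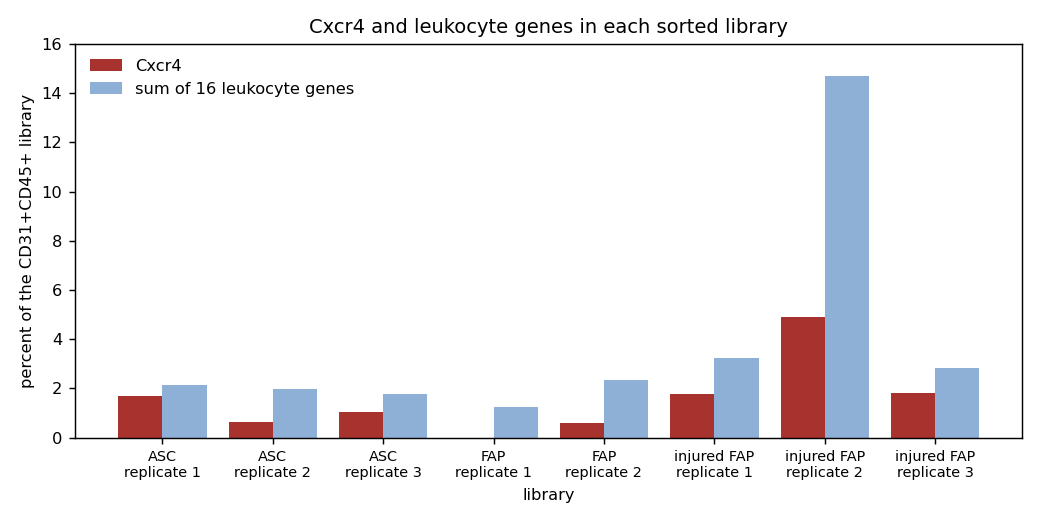
Cxcr4 (red) and the sum of 16 leukocyte marker genes (blue) in each ASC and FAP library, both in percent of their value in the CD31+CD45+ library. Injured FAP replicate 2 is the highest for both, at 4.89% and 14.7%, and FAP replicate 1 has no Cxcr4.

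By the likeness of their values over the 8 libraries, up to 5 genes were named for each member, among 10591 genes whose mean reached 100. The measure is the Pearson r of log2(value + 1), and libraries of a group share their cell type, so it is a description without a test. For Ackr3 these were Tmeff2 (0.999), Pla1a, Hpse, Arhgap28 and Olfm2, and 70 genes had an r above 0.99. Pla1a, for example, had means of 10389 in ASCs, 1326 in FAPs and 717 in injured FAPs. For Cxcl12 they were Fastkd5 (0.982), Mtf1, Polg, Pprc1 and Poldip3. All of these had an r of 0.838 to 0.940 without ASC replicate 1. For Cxcr4 they included Wdr62 (0.949), Rfx7, Nnt and Acsl1, and the r of Nnt was 0.707 without FAP replicate 1.

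Genes that act around the axis were grouped into 7 lists. For each list the counts that passed in each direction and the median log2 fold change are given beside the same over all genes tested, where the median was 0.00486 for ASCs against FAPs, −0.0511 for injured FAPs against FAPs and 0.021 for injured FAPs against ASCs. In the same order, 23.4%, 24.9% and 25% of all genes tested were higher, and 23.8%, 27.7% and 25.8% were lower. Counts of a list are to be read against these shares, which shift with the scaling as given above. The comparisons share libraries, so their values are set side by side and not compared. Each log2 fold change of a named gene below comes from the same limma fit.

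Other ligands and co-receptors of CXCR4 and ACKR3 numbered 8, of which 7 were tested. In ASCs against FAPs 3 were higher and 1 lower (median 0.41), and with total scaling 2 were higher and 2 lower (median −0.16). In injured FAPs 5 were higher and 1 lower against FAPs (median 1.14), and 4 were higher and 1 lower against ASCs (median 1.03; 6 and 1 with total scaling, median 1.73). Mif, a cytokine that also binds CXCR4, was at 5154, 4925 and 4630.4 in injured FAPs, at 733 and 689.6 in FAPs and at 921, 1190.4 and 768 in ASCs. Its log2 fold change in injured FAPs was 2.78 against FAPs and 2.37 against ASCs. Hmgb1, which forms a complex with CXCL12, was higher in injured FAPs by 1.14 and 1.40 in the same order. Cxcl14, a chemokine that binds CXCR4, was lower in ASCs than in FAPs (−0.88) and higher in injured FAPs than in ASCs (1.03), with 0.15 for injured FAPs against FAPs. Penk, whose opioid peptides ACKR3 scavenges, was lower in injured FAPs (−1.22 against FAPs and −1.54 against ASCs). Cd44, a co-receptor of MIF, was higher than in FAPs in ASCs (1.89) and in injured FAPs (2.42). Cd74, the MIF receptor, was at 0 in both FAP libraries, at 65.9, 21.5 and 23.9 in ASCs and at 115, 575 and 103 in injured FAPs. It is also abundant in antigen-presenting leukocytes.

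Proteases that cut or trim CXCL12 numbered 8, of which 6 were tested. Among them 5 were higher and 1 lower in ASCs against FAPs (median 1.21), and 2 were higher and 1 lower with quantile normalization. In injured FAPs 1 was higher and 3 lower against FAPs (median −0.86), and 2 were higher and 4 lower against ASCs (median −1.92). Dpp4, which removes the end of CXCL12 needed for signalling, was at 16547, 14086 and 15958 in ASCs, at 1749.7 and 1761 in FAPs and at 967, 749 and 766 in injured FAPs. The order of the groups was the one seen for Ackr3, with no overlap. The log2 fold change of Dpp4 was 3.14 for ASCs against FAPs, −1.09 for injured FAPs against FAPs and −4.24 for injured FAPs against ASCs. Mmp2, a gelatinase, was lower in injured FAPs (−1.28 against FAPs and −2.2 against ASCs), and so was Ctsk, cathepsin K (−1.05 and −2.27). Mmp9, another gelatinase, went the other way, at 88.7, 149 and 118 in injured FAPs, at 0 and 2.82 in FAPs and at 21.1, 6.80 and 22.6 in ASCs. Its log2 fold change in injured FAPs was 5.90 against FAPs (4.94 to 6.87 as each library was left out) and 2.87 against ASCs. Mmp14, a membrane-bound metalloproteinase, was lower in injured FAPs than in ASCs (−1.63). Cpm, a carboxypeptidase, was low in ASCs, with −3.32 for ASCs against FAPs and 2.66 for injured FAPs against ASCs.

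Heparan sulphate core proteins and enzymes, which make and edit the sugar chains that hold CXCL12, numbered 19, all tested. Of these, 8 were higher and 4 lower in ASCs against FAPs (median 0.23). These counts depended on the scaling: 1 was higher and 6 lower with quantile normalization (median −0.15), and 1 was higher and 7 lower with total scaling (median −0.34). In injured FAPs 7 were higher and 3 lower against FAPs (median 0.34), and 5 were higher and 4 lower against ASCs (median 0.05; 12 and 4 with total scaling, median 0.75). Gpc1, a glypican core protein, was lower in ASCs than in FAPs (−1.82) and higher in injured FAPs than in ASCs (2.51). Gpc6, another glypican, was lower in injured FAPs (−1.47 against FAPs and −2.44 against ASCs). Ext1, which extends the chains, was higher in injured FAPs than in FAPs (1.15). The sulphotransferase Hs6st2 was at a mean of 187 in injured FAPs, at 8.56 and 10.3 in FAPs and at 7.90, 10.2 and 1.26 in ASCs. Its log2 fold change in injured FAPs was 4.17 against FAPs and 4.95 against ASCs (4.23 to 5.39 as each library was left out). It had a mean under 10 without the injured libraries, and without it the list counted 6 higher and 3 lower against FAPs and 4 and 4 against ASCs. Its relative Hs6st1 was higher in ASCs than in FAPs (1.48) and lower in injured FAPs than in ASCs (−1.73).

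Genes of signalling and desensitization after the receptors numbered 21, of which 19 were tested. In ASCs against FAPs 4 were higher and 6 lower (median −0.03, or −0.11 with genes at 0 in FAPs placed at their bound), and with total scaling 3 were higher and 11 lower (median −0.60). In injured FAPs against FAPs 4 were higher and 6 lower (median 0.02, which was −0.05 with quantile normalization and −0.08 with a common 75th percentile). Rac2 and Dock2, known from leukocytes, were among the 4, were at 0 in both FAP libraries and had a mean under 10 without the injured libraries. Without them 2 were higher and 6 lower (median −0.09) in this comparison, 3 and 6 in ASCs against FAPs (median −0.11), and 3 and 2 in injured FAPs against ASCs (median 0.13). In injured FAPs against ASCs 5 were higher and 2 lower (median 0.16), against 14 and 2 with total scaling (median 0.85) and 7 and 2 with quantile normalization (median 0.39). Gnai1, an inhibitory G protein subunit, was higher in ASCs than in FAPs (2.30) and lower in injured FAPs than in ASCs (−2.57). Arrb1, a beta-arrestin that ends G protein signalling and carries receptors into the cell, was lower than in FAPs in ASCs (−0.86) and in injured FAPs (−1.42). Grk3, a kinase that marks active receptors for arrestins, was lower than in FAPs in ASCs (−2.63) and in injured FAPs (−2.95). Rgs16, which shuts off G proteins, was higher than in FAPs in ASCs (2.07) and in injured FAPs (2.50).

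Genes of CXCL12-rich niche cells in bone marrow numbered 11, all tested. In ASCs, 4 were higher and 5 lower than in FAPs (median −0.14). With quantile normalization these were 4 and 4 (median −0.41), and with total scaling 4 and 6 (median −0.7). In injured FAPs 3 were higher and 3 lower against FAPs (median 0.11), and 4 were higher and 3 lower against ASCs (median 0.34; 7 and 2 with total scaling, median 1.04). Kitl, stem cell factor, was higher in ASCs than in FAPs (1.65) and lower in injured FAPs than in ASCs (−1.45). Csf1, a macrophage growth factor, was higher than in FAPs in ASCs (2.41) and in injured FAPs (2.46). Vcam1, an adhesion molecule that retains blood progenitors, was higher than in FAPs by 1.45 in ASCs and by 2.07 in injured FAPs, and higher in injured FAPs than in ASCs by 0.63. Lepr, the leptin receptor that marks these niche cells, was lower than in FAPs both in ASCs (−3.11) and in injured FAPs (−1.79). It was higher in injured FAPs than in ASCs (1.32). Of the niche transcription factors, Ebf1 was higher in ASCs than in FAPs (1.40), and Foxc1 was lower in ASCs than in FAPs (−1.44) and higher in injured FAPs than in ASCs (1.55).

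Genes of the response to low oxygen, which is known to raise Cxcl12, Cxcr4 and Ackr3 in several cell types, numbered 14, of which 13 were tested. In ASCs, 7 were higher and 1 lower than in FAPs (median 0.86; 5 and 3 with total scaling, median 0.29). In injured FAPs against FAPs 6 were higher and 3 lower (median 0.06, which was −0.07 with quantile normalization and −0.03 with a common 75th percentile). In injured FAPs against ASCs 2 were higher and 5 lower (median −0.42), and with total scaling 4 were higher and 3 lower (median 0.28). Hif1a, the oxygen-sensing transcription factor, was higher than in FAPs in ASCs (1.59) and in injured FAPs (2.04), and its relative Epas1 was lower in both (−1.05 and −2.11). Vegfa, a vessel growth factor, was higher in ASCs than in FAPs (2.2) and lower in injured FAPs than in ASCs (−2.14). The glycolytic genes Pgk1 and Ldha were higher in injured FAPs, by 2.16 and 1.83 against FAPs and by 1.60 and 0.93 against ASCs.

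Signals that are known to mobilise progenitors or to lower Cxcl12 in stroma numbered 8, all tested. In ASCs against FAPs 5 were higher and 2 lower (median 4.56). In injured FAPs 6 were higher and 1 lower against FAPs (median 3.86), and 4 were higher and 2 lower against ASCs (median 0.86; 5 and 0 with total scaling, median 1.53, and 5 and 1 with quantile normalization, median 1.01). Il1b had a mean under 10 without the injured libraries, and without it the counts against FAPs were 5 and 1 (median 3.84) and those against ASCs 3 and 2 (median 0.51). Csf3, the growth factor that mobilises progenitors from marrow, was at a mean of 177 in ASCs and 74.4 in injured FAPs, and at 1.90 and 12.2 in FAPs. Its log2 fold changes against FAPs were 4.71 and 3.59, and leaving out a library moved them to between 3.62 and 5.81 and to between 2.49 and 4.68. Cxcl1, a neutrophil-attracting chemokine, was higher than in FAPs by 4.64 in ASCs and by 3.88 in injured FAPs, and Cxcl2, of the same family, by 7.18 and 7.69. Il6, an inflammatory cytokine, was higher by 4.49 and 3.84. Cxcl5, of the family of Cxcl1 and Cxcl2, was at 24537, 25243 and 28574 in injured FAPs. It was at 8.56 and 42.3 in FAPs and at 1234, 1378 and 217 in ASCs. Tgfb1, a growth factor known to lower Cxcl12 in stroma, was lower in ASCs than in FAPs (−1.22) and higher in injured FAPs than in ASCs (1.48). Tnf, an inflammatory cytokine, was lower in ASCs than in FAPs (−3.00).

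Some of the log2 fold changes given for these lists moved by over 1.5 times with the scaling, with the same direction and call. In ASCs against FAPs, quantile normalization gave −1.55 for Cxcl14, 1.25 for Cd44 and 1.57 for Csf1. Total scaling gave 0.91 for Hs6st1, −1.43 for Arrb1, 1.08 for Kitl, 0.88 for Vcam1, 0.83 for Ebf1, 1.02 for Hif1a and −1.61 for Epas1. In injured FAPs against ASCs, total scaling gave 2.10 for Hmgb1, −0.84 for Penk, −1.03 for Hs6st1, −0.75 for Kitl, 1.32 for Vcam1, 2.02 for Lepr and 1.63 for Ldha. There quantile normalization gave 1.84 for Cxcl14, −1.27 for Mmp2 and −0.91 for Mmp14. Cxcl14 in injured FAPs against FAPs was between 0.05 and 0.29, and Mmp9 in the same comparison was 3.74 with a pseudocount of 8.

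**Figure D5:**
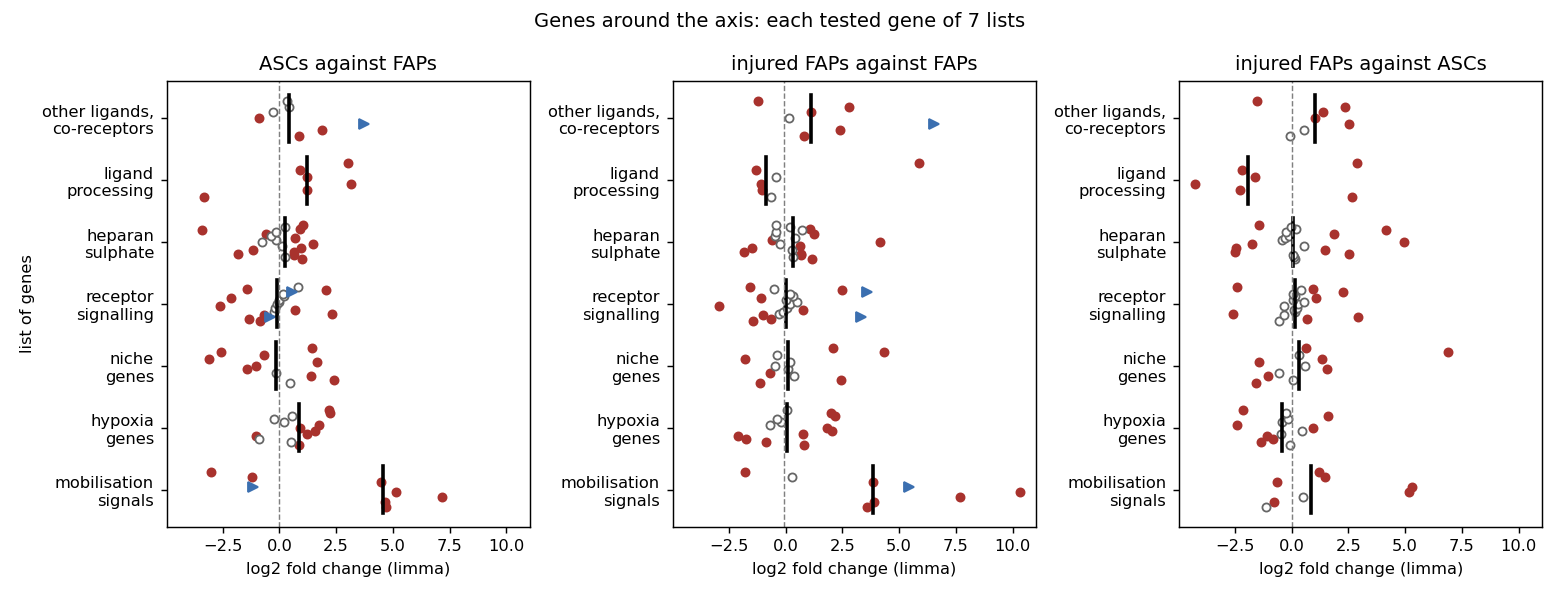
Log2 fold change (limma) of each tested gene of the 7 lists in the 3 comparisons; filled red points passed the test, open points did not, blue arrows are lower bounds for genes at 0 in both FAP libraries, and the dashed line is the median of all genes tested. Black bars are list medians, from −1.92 for ligand processing in injured FAPs against ASCs to 4.56 for mobilisation signals in ASCs against FAPs.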

How the data were processed

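For the authors, reads passed fastq_illumina_filter 0.1, HISAT2 2.2.1 with the mm10 genome, featureCounts (Subread 2.0.1) and DESeq2 1.34.0. The deposited unit is a signal for each gene in each library, and its scaling is not stated. In all 9 libraries 100% of the values were whole reads divided by a size factor, within 0.01 reads. Gene lengths came from GENCODE M21.

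The model of limma 3.58.1 (R 4.3.3) held 3 group means over 8 libraries and a trend in the prior variance, on log2(value + 1). It covered 13601 genes, those whose mean was 10 or more, with Benjamini-Hochberg adjustment. Ratios were tested by exact permutation with SciPy 1.17.1.

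Alternatives covered pseudocounts of 0.5 and 8, filters, scalings, the groups and terms of the fit, edgeR 4.0.16, DESeq2 1.42.0, the p threshold and each library left out. The named genes are the members, genes of the lists, and up to 5 genes by likeness per member. The members and lists were chosen with earlier results of these data known. Values of the CD31+CD45+ library entered no test. Markers of satellite cells, muscle fibres, Schwann cells, adipocytes and pericytes were also summed.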

Additional observations from a re-analysis of the deposited data

Results flagged for a closer look

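The library of CD31+CD45+ cells from glycerol-injected quadriceps, which entered no comparison, held more Cxcl12 and Cxcr4 than any library of NaCl-injected mice. Cxcl12 was at 46926 there, 2.50 times the highest of the 8 other libraries, ASC replicate 1. Cxcr4 was at 1775 there, 20.4 times the highest of the 8 other libraries, injured FAP replicate 2. The library has no replicate, and the differences were not tested.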

How the results depend on the processing

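Of the results for the 3 genes, Ackr3 in injured FAPs against ASCs (−3.06 to −2.22) and in ASCs against FAPs (1.42 to 2.39) kept its direction and its call under all 22 alternatives, and Cxcr4 in injured FAPs against FAPs (2.0 to 5.51) under the 21 that could test it. A filter at a mean of 50 left Cxcr4 out. Cxcl12 in injured FAPs against FAPs stayed between 0.06 and 0.28 and was not called. All other changes follow. Total scaling gave −0.54 for Ackr3 in injured FAPs against FAPs (not called), 2.09 for Cxcr4 in ASCs against FAPs (not called), 1.88 for Cxcr4 in injured FAPs against ASCs (called), and turned Cxcl12 to 0.32 in injured FAPs against ASCs and to −0.04 in ASCs against FAPs. Quantile normalization turned these to 0.25 and −0.17. Cxcr4 in ASCs against FAPs lost its call with a pseudocount of 8 (1.16), edgeR (1.87), the compared groups alone (2.55) and no trend (2.55). The ratio of Cxcr4 to Ackr3 in ASCs against FAPs was −1.09 with a pseudocount of 8. The cause was not tested for these.

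With the replicate block, the replicate number as a term, Cxcl12 in ASCs against FAPs was 0.59 and called. Deviations of same-numbered libraries from their group means correlated at −0.0545 to 0.0446, and those of differently numbered libraries at −0.123 to 0.123. The values thus gave no sign of a pairing by number. The deviations of the 2 FAP libraries mirror each other, and whether same-numbered libraries share animals is not known.

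With each library left out in turn, values ranged in ASCs against FAPs from 0.31 to 0.65 for Cxcl12, from 0.80 to 4.30 for Cxcr4 and from −1.46 to 2.06 for the ratio of Cxcr4 to Ackr3. In injured FAPs against FAPs Cxcr4 ranged from 2.0 to 5.51, and in injured FAPs against ASCs from 0.73 to 1.54 and Cxcl12 from −0.50 to −0.16. A lone FAP library is then assumed to vary like the other groups.

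The number of genes called was 5341 to 7909, 6112 to 7941 and 5877 to 9070 over the alternatives in the 3 comparisons, each within 1.5 times the count reported. Total scaling moved the median of all genes to −0.557 for ASCs against FAPs and to 0.714 for injured FAPs against ASCs, and a common 75th percentile moved it to −0.203, −0.145 and 0.135. Relative to that shift, Cxcl12 under total scaling lay above the median of all genes in the first and below it in the other. TMM scaling moved the last median to 0.109. The 74 fitted log2 fold changes given for genes of the lists around the axis kept direction and call in all of their alternatives. Some of the 74 moved in size by over 1.5 times, as given with the lists. Calls of other genes of the lists did not all hold, so these 74 do not stand for the lists. In ASCs against FAPs the heparan sulphate list went from 8 higher and 4 lower to 1 and 6 with quantile normalization. At this depth Cxcr4 in FAPs rests on 0 and 11 reads.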

Other observations

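In the CD31+CD45+ library Ackr3 was at 5226, below the lowest of the 8 other libraries (6199.9). Per kilobase of merged exons Cxcl12 was at 5739 there, Ackr3 at 1561 and Cxcr4 at 982, so the order of the genes was another than in ASCs and FAPs. Cxcl12 per kilobase ranked 109 among 24870 genes in this library. The log2 ratio of Cxcl12 to Ackr3 was 3.17, that of Cxcr4 to Ackr3 was −1.56 and that of Cxcl12 to Cxcr4 was 4.72. The library was rich in endothelial markers, with a sum of 400308 (Cdh5 at 98652), and held 21071 of leukocyte, 90198 of pericyte and smooth muscle, 11565 of Schwann cell, 3316 of satellite cell, 3106 of muscle fibre and 14.1 of adipocyte markers. All but the last were the highest sums of the 9 libraries.

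Markers of other cells were measured in the sorted libraries too, and their part in the values of Cxcl12 and Ackr3 was not tested. Rgs5, a pericyte gene, was at 100.1, 60.03 and 40.2 in ASCs, at 6148 and 4583 in FAPs, at 1718, 2018 and 2091 in injured FAPs and at 40800.3 in the CD31+CD45+ library. The summed 8 pericyte and smooth muscle genes were at 5387, 3456 and 4218 in ASCs, at 24322 and 21377 in FAPs and at 10489, 10093 and 10625 in injured FAPs. Muscle fibre genes (7) summed to 151, 116 and 154 in ASCs, to 745 and 905 in FAPs and to 279, 281 and 225 in injured FAPs. Satellite cell genes (6) summed to 317, 281 and 446 in ASCs and to 1200.03 and 1281 in FAPs. In injured FAPs they summed to 749, 615 and 728. Itga7 alone made 308, 271 and 442 of these sums in ASCs and 916 and 880 in FAPs. In injured FAPs it made 474, 403 and 497. Pax7 was at 0 in all ASC libraries, at 31.4 and 65.9 in FAPs and at 11.8, 10.8 and 5.34 in injured FAPs. Schwann cell genes (5) summed to 1207, 913 and 836 in ASCs, to 1053 and 1824 in FAPs and to 670.1, 398 and 673 in injured FAPs. Adipocyte genes (4) summed to 113, 96.3 and 109 in ASCs, to 15.2 and 21.6 in FAPs and to 6.28, 6.97 and 1.53 in injured FAPs. The muscle-derived libraries were thus above ASCs in the sums of pericyte, muscle fibre and satellite cell genes, and below them in that of adipocyte genes. Of the 8 pericyte and smooth muscle genes, 6 were higher and 2 lower in injured FAPs against ASCs, beside 25% and 25.8% of all genes. Abcc9, the most abundant of them in ASCs, was at 3902, 2402 and 3182 there and at 607, 660 and 742 in injured FAPs.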
